A study of Mus musculus with 6 samples.

Results

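In all, 10 protein-coding genes of a multi-copy family at the centromere end of mouse chromosome 14 were followed: Gm2897, Gm5795, D830030K20Rik, Gm3317, Gm3500, Gm3488, Gm3383, LOC100861615, Gm10406 and Gm3558. They were taken by gene symbol from the deposited gene tables, and all 10 were among the 17645 genes listed in at least 1 library. They had been picked for their difference between the genotypes in these same libraries, so that difference is given as a description with no p. RNA came from the suprachiasmatic nucleus (SCN), the hypothalamic seat of the circadian clock, which was punched from frozen brain sections of female mice of strain C57BL/6. Mice were killed in darkness at zeitgeber time 12 to 14, and each library held pooled RNA of 2 SCN. There were 3 libraries labelled V (replicates 2, 3 and 4) and 3 labelled r1r2V (replicates 1, 4 and 5). The series title names a knockout, in GABAergic neurons, of both REV-ERB receptors (α and β), and r1r2V was read as that knockout and V as its control. The Cre driver, the deleted exons, the age of the mice and whether pools came from separate animals are not stated in the labels, so errors measure the spread between these libraries.

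REV-ERBα and REV-ERBβ are nuclear receptors that repress transcription and form part of the circadian clock, and their genes are Nr1d1 and Nr1d2. The 10 genes belong to the α-takusan family, a rodent family with many near-identical copies on mouse chromosome 14 that resemble the amino-terminal part of DLG5, a scaffold protein of the membrane-associated guanylate kinase group. Takusan proteins have been described in neurons as binding partners of the PSD-95 scaffold (gene Dlg4) that affect synaptic activity. The protein descriptions in the deposited tables name takusan for 6 of the 10 genes. RefSeq lists LOC100861615 under the symbol Gm3411.

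The targeted genes were not lower in the libraries labelled r1r2V. Nr1d1 was at 56.7, 62.5 and 57.0 CPM (counts scaled to the library total) in V and at 196, 157 and 147 CPM in the libraries labelled r1r2V (2.84-fold higher, edgeR adjusted p = 8.24e-05). Nr1d2 was at 177, 179 and 168 CPM in V and at 229, 275 and 222 CPM in the libraries labelled r1r2V (log2 fold change 0.47, edgeR adjusted p = 0.0553). Both genes had higher values in every library with the knockout label. The deposited rows are per whole gene, and whether part of either gene was lost was not tested. Every direction given here rests on the library titles. Library totals were between 15729603 and 17780928 expected counts. Summed markers of SCN neurons were at 493 to 573 CPM in V, against 440 to 552 CPM in the libraries labelled r1r2V, and no marker of 10 cell type lists was called different by edgeR's test.

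Within the coding sequence the copies were almost the same. A stretch of 120 coding bases that opens the D830030K20Rik coding sequence was present in all 10 genes (GENCODE M21 transcripts, build GRCm38, also called mm10). It is spliced from exons separated by an intron. The version of Gm3500 (chr14:5371384-5372453, minus strand) was shared base for base by 8 of the 10 genes. Gm5795 (chr14:3189265-3190339, plus strand) and D830030K20Rik (chr14:3225315-3226360, plus strand) had versions of their own, shown with the bases that differ from the common version in capitals.
Gm3500: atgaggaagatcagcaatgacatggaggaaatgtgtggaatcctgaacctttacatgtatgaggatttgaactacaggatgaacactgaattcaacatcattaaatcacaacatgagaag
Gm5795: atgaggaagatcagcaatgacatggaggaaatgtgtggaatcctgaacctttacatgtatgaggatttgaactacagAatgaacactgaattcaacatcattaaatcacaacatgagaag
D830030K20Rik: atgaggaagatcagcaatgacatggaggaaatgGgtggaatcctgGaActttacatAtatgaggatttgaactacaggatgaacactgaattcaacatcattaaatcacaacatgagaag
Counted from 1 at the 5′ end of the stretch, Gm5795 carried G78A, with the base of the common version written first. D830030K20Rik carried T34G, A46G, C48A and G57A. The family thus held a large group that was identical over this stretch, and D830030K20Rik was the member with the most differences.

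Over their longest alignments the 45 pairs of transcripts were between 92.2% and 100% identical, with a median of 96.9%. Gm3488 and Gm3317 were 100% identical over the 519 bases of the Gm3317 model. Gm3383 and Gm3500 were 99.4% identical. D830030K20Rik was 92.2% to 95.3% identical to the others, and Gm5795 92.3% to 94.4%, so these 2 genes stood farthest from the rest.

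**Figure D1:**
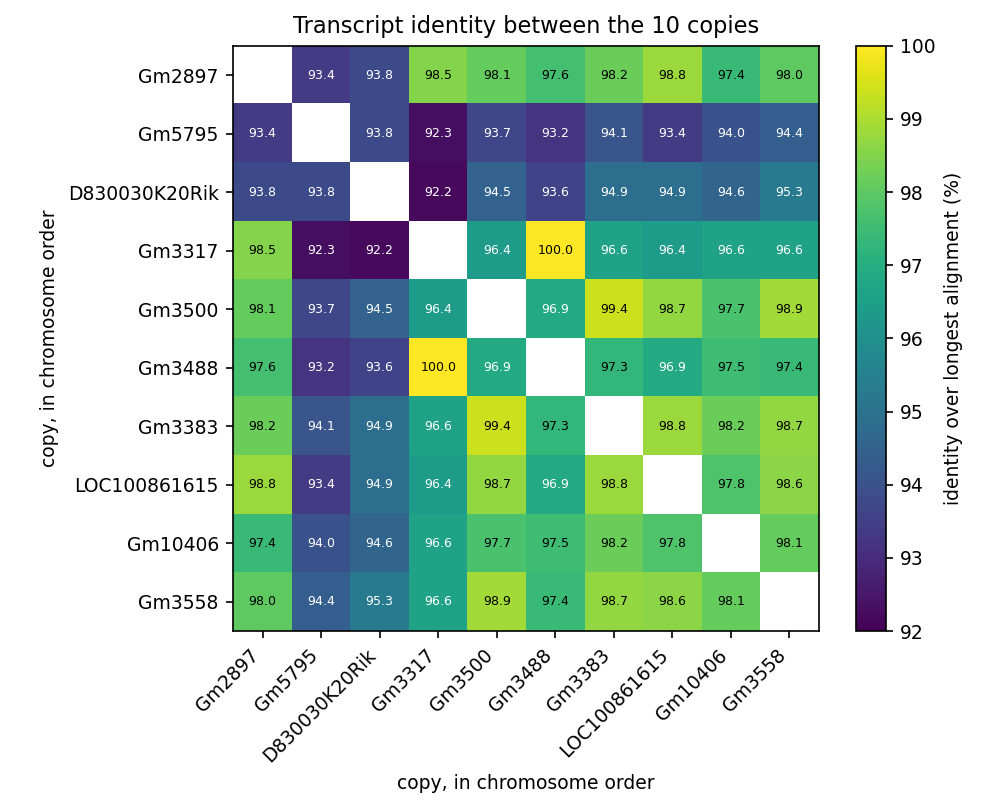
Percent identity of the longest alignment between the transcripts of each pair of the 10 genes, with genes on both axes in chromosome order and colour running from 92 to 100%. The dark rows and columns of Gm5795 and D830030K20Rik show values of at most 95.3%, and the brightest cells are Gm3317 with Gm3488 (100%) and Gm3383 with Gm3500 (99.4%).

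The share of a transcript that no other listed gene repeats bears on how well its reads can be placed. The shares here are from GENCODE M21 models, which differ from the deposited transcript lengths for some genes. The models have 519 bases for Gm3317 and 1142 for D830030K20Rik, against 1743 and 1755 deposited. The shares thus need not be those behind the authors' division of reads. Of all 100-base words of a transcript, none was unique to Gm3317 or Gm3383. Gm3500 had 3.72% unique words and Gm5795 had 8.70%. The other 6 genes had between 22.4% (Gm2897) and 29.8% (Gm10406), with D830030K20Rik at 24.5%. All 57 expected counts listed for the 10 genes were fractional (tolerance 0.005), against 9.88% of all values in the tables, and a fractional count holds reads divided between copies by the authors' estimation. A level of a single copy is therefore uncertain, and by these models most of all for Gm3317, Gm3383 and Gm3500.

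By base composition, most of the promoters fell into 2 kinds. RefSeq lists starts for all 10 genes, and the 150 bases upstream of a start are given for 6 of them to set the kinds side by side (GRCm38.p6, read on the gene's strand). Capitals mark the E-box CACGTG, the site of the clock activators, or the nuclear receptor half-site AGGTCA, each searched on both strands, and a sequence without capitals holds neither in these 150 bases.
LOC100861615: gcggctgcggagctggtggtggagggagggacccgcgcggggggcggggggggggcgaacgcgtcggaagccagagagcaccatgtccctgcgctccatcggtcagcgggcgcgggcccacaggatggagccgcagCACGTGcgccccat
Gm10406: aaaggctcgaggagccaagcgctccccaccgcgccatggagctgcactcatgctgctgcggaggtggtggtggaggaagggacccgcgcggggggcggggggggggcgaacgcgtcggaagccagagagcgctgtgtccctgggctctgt
Gm2897: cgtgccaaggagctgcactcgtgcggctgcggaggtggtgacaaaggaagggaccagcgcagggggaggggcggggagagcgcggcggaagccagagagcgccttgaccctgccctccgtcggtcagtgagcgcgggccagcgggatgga
D830030K20Rik: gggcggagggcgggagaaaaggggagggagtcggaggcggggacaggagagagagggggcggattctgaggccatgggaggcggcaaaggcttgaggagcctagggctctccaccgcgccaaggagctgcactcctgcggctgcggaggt
Gm3317: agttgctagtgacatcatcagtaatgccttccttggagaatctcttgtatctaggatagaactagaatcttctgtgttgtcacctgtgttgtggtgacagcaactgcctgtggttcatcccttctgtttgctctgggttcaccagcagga
Gm5795: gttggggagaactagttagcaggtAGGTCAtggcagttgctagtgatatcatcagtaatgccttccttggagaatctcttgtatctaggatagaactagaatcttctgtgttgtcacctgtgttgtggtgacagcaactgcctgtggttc
These windows lie at chr14:6287251-6287400 (LOC100861615, minus strand), chr14:7027450-7027599 (Gm10406, minus strand), chr14:3049135-3049284 (Gm2897, plus strand), chr14:3208343-3208492 (D830030K20Rik, plus strand), chr14:5163492-5163641 (Gm3317, plus strand) and chr14:3188134-3188283 (Gm5795, plus strand). The first kind was rich in G and C, with 76.0% in LOC100861615, 72.7% in Gm3500, 71.3% in Gm2897 and Gm10406, 69.3% at the first start of D830030K20Rik and 68.0% in Gm3558. The second kind held 45.3% (Gm5795), 46.0% (Gm3317) and 46.0% (the second start of Gm3488). At its first start Gm3488 held 61.3%, and the 2 starts of Gm3383 held 34.7% and 46.0%. The 300-base windows around the Gm3317 start and the second Gm3488 start were identical, with 0 differences.

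Motifs were searched in windows from 250 bases before to 50 bases after each start. The E-box CACGTG lay at position -14 from the start of LOC100861615 and at position 38 in Gm10406, and 7.15% of all 32851 RefSeq promoters hold it. The half-site AGGTCA, part of the REV-ERB binding site, lay at -126 in Gm5795, at -160 in Gm3317 and at the second start of Gm3488, and at -232 from the second start of D830030K20Rik, and 16.3% of promoters hold it. Neither the longer REV-ERB site RevDR2 (AGGTCANNAGGTCA, which includes the half-site, 0.00913% of promoters) nor the site named RORE (0.384%) was found in any of the 10. A GC-box core, GGGCGG, was present in 6 of the 10 genes, all of the first kind, and in 35.7% of promoters. The 1 gene with TGACG, the half-site of the cAMP response element, was Gm3558, and 20.8% of promoters hold it. These matches describe letters only, and no binding was measured here.

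Of the 10 genes, 8 were higher and 2 were lower in the libraries labelled r1r2V, and the 3 values of one group did not overlap the 3 of the other for any of the 10. All 10 passed the filter on low counts. Gm3317 passed through V alone, as it was at 0 in the libraries labelled r1r2V. Gm5795 had 5.27 counts in V replicate 3, under the minimum of 10, and passed through the libraries labelled r1r2V. By edgeR's quasi-likelihood test with a Benjamini-Hochberg adjusted p under 0.05, 8 were called higher, where 0.298% of the 14438 genes tested were called higher, and 2 were called lower, where 0.118% were. Without overlap between groups, 6.87% of tested genes were higher and 7.63% lower. The genes had been chosen on this contrast, so these counts say nothing further about them. In bulk tissue, more cells that express a gene and more RNA per cell cannot be told apart. The levels of each gene follow, as the expected count in each library and then as CPM (mean ± SD, n = 3 libraries per group).

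Gm3500, Gm3383 and LOC100861615 are 3 genes on the minus strand whose transcripts are 98.7% identical or more. Gm3500 (gene 100041678, chr14:5365792-5389718) had 96.9, 75.3 and 56.5 counts in V and 813, 900 and 584 counts in the libraries labelled r1r2V. Its mean was 4.42 ± 0.974 CPM in V and 44.3 ± 9.17 CPM in the libraries labelled r1r2V, 10-fold higher (log2 fold change 3.32). This was the highest fold of the 8 genes that were higher, and it belongs to a gene with few unique words. Gm3383 (gene 100041515, chr14:5790561-5813737) had 307, 322 and 271 counts in V and 1591, 1633 and 1161 counts in the libraries labelled r1r2V. Its mean moved from 17.6 ± 0.514 to 84.6 ± 14.7 CPM, 4.82-fold (log2 fold change 2.27). The V libraries lay close together for Gm3383, with a coefficient of variation of 2.93%, against 17.4% in the other group. LOC100861615 (gene 100861615, chr14:6259747-6287250) had 266, 201 and 165 counts in V and 1474, 1714 and 1150 counts in the libraries labelled r1r2V. From 12.3 ± 2.41 CPM it stood 6.82-fold higher, at 83.7 ± 15.8 CPM (log2 fold change 2.77). With 29.2% unique words, LOC100861615 had one of the highest shares of the 10.

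Gm10406, Gm3558 and Gm2897 have GC-rich promoters and also 22.4% or more unique words. Gm10406 (gene 100038847, chr14:7006115-7028582, minus strand) had 304, 295 and 241 counts in V and 1225, 1359 and 999 counts in the libraries labelled r1r2V. Its level went from 16.4 ± 0.959 to 69.1 ± 10.1 CPM, 4.23-fold (log2 fold change 2.08). The gene has the highest share of unique words of the 10. Gm3558 (gene 100041874, chr14:7545151-7568566, minus strand) had 392, 368 and 326 counts in V and 1523, 1575 and 1095 counts in the libraries labelled r1r2V. Means were 21.2 ± 0.815 and 80.9 ± 14.8 CPM, a 3.82-fold difference (log2 fold change 1.93). It had the highest CPM of the 10 in V. Gm2897 (gene 100040671, chr14:3049285-3076840, plus strand) had 212, 202 and 183 counts in V and 722, 787 and 633 counts in the libraries labelled r1r2V. At 11.7 ± 0.293 and 41.3 ± 4.19 CPM, it had the lowest fold of the 8 genes, 3.55 (log2 fold change 1.83). It also had the tightest values in both groups, with coefficients of variation of 2.52% in V and 10.1% in the libraries labelled r1r2V.

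Gm5795 (gene 544990, chr14:3188284-3196683, plus strand) was the scarcest of the 10 genes in V. It had 14.3, 5.27 and 15.3 counts in V and 76.4, 74.8 and 60.5 counts in the libraries labelled r1r2V. Its mean was 0.674 ± 0.350 CPM in V and 4.07 ± 0.5 CPM in the libraries labelled r1r2V, 6.04-fold higher (log2 fold change 2.60). V replicate 3 was the low library there, and the V libraries varied by 51.8%. Gm5795 was also summed with the 3 genes closest to it by sequence, Gm10413 (99.5% identical), Gm5458 (96.5%) and Gm5797 (96.1%). The sum was 1.57, 1.45 and 1.83 CPM in V, without the low value in replicate 3, and 8.17, 7.40 and 5.15 CPM in the libraries labelled r1r2V, 4.27-fold higher.

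D830030K20Rik (gene 320333, chr14:3208493-3234562, plus strand) went the other way. It had 147, 163 and 169 counts in V and 21.4, 23.8 and 19.1 counts in the libraries labelled r1r2V. The mean was 9.40 ± 1.23 CPM in V and 1.23 ± 0.136 CPM in the libraries labelled r1r2V, 7.61-fold lower (log2 fold change -2.92). All 3 libraries labelled r1r2V lay far below the lowest V library. With Gm5795, which was higher, the gene stood farthest from the others by sequence. It had 4 substitutions in the stretch shown, and 24.5% of its words are unique. Gm10408, a copy 99.3% identical to it, was higher on its own (log2 fold change 2.09). The sum of D830030K20Rik and Gm10408 was at 8.76, 9.50 and 11.1 CPM in V. It was at 3.14, 3.12 and 2.26 CPM in the libraries labelled r1r2V, so the sum was lower (0.290 of the V mean).

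Gm3317 (gene 666329, chr14:5147818-5170292, plus strand) had 81.4, 72.5 and 79.7 counts in V and was listed in none of the libraries labelled r1r2V. If its group total is set to a floor of 3 counts, the 234 counts of V put it at least 77.8-fold lower (log2 bound -6.28). The floor covers counting error only. Gm3488 (gene 100041735, chr14:5500978-5522929, plus strand), the copy identical to it over 519 bases, had 279, 218 and 183 counts in V and 1337, 1534 and 1079 counts in the libraries labelled r1r2V. It was 5.77-fold higher, from 13.2 ± 2.22 to 76.2 ± 12.7 CPM (log2 fold change 2.53). Gm3317 was therefore at 0 while Gm3488 was higher, and the 519-base model of Gm3317 has no unique words to tell the pair apart. The deposited transcript length of Gm3317 was 1743 bases, and the part outside the model was not compared. Their sum was 20.3, 16.4 and 16.7 CPM in V, against 77.6, 88.1 and 62.9 CPM in the libraries labelled r1r2V, 4.29-fold higher, with no overlap.

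**Figure D2:**
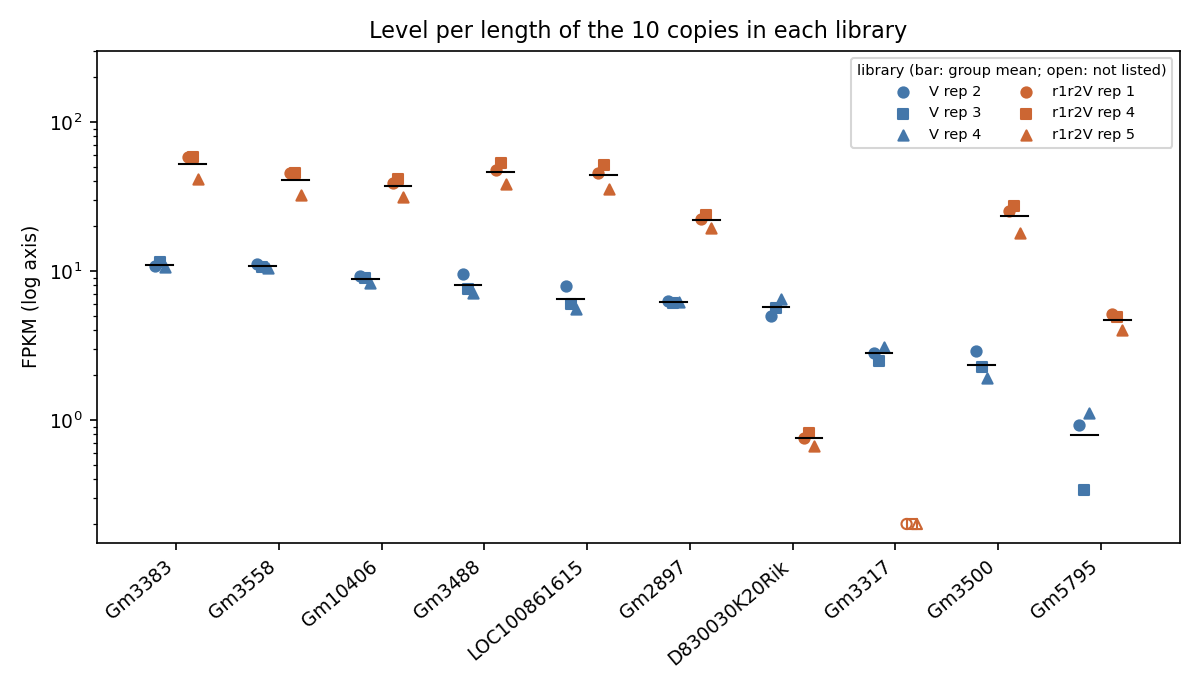
FPKM of each of the 10 genes in each library on a log axis, V in blue and r1r2V in orange, with replicates as marker shapes and black bars at the group means. The orange points lie above the blue ones for 8 genes and below for D830030K20Rik, and the open markers of Gm3317 stand for libraries that did not list it and carry no value.

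FPKM, which scales fragments by transcript length and library size, allows levels to be compared between genes. In both groups, however, the order of near-identical copies rests on the authors' division of reads. By the models above it is least sure for Gm3317, Gm3383 and Gm3500. In V, Gm3383 (10.9 FPKM) and Gm3558 (10.7 FPKM) were highest and their ranges overlapped. Gm10406 (8.83), Gm3488 (8.04), LOC100861615 (6.48), Gm2897 (6.17) and D830030K20Rik (5.68 FPKM) followed, each overlapping the next in range. Gm3317 (2.79 FPKM) and Gm3500 (2.35 FPKM) came below them without overlap, and Gm5795 was last at 0.790 FPKM. The middle of this order was at the level of a typical gene, since the median FPKM of listed genes was 6.51 in V.

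The order differed in the libraries labelled r1r2V. Gm3383 was again first, at 52.5 FPKM, and Gm3488 (46.2), LOC100861615 (44.1), Gm3558 (40.9) and Gm10406 (37.2 FPKM) each overlapped the next. Gm3500 (23.5 FPKM) and Gm2897 (21.8 FPKM) came next with overlapping ranges, then Gm5795 at 4.68 FPKM and D830030K20Rik at 0.75 FPKM, with Gm3317 not listed. The median of listed genes was 6.46 FPKM, so 7 of the 10 lay above it in this group. Gm3500 moved past Gm2897 and D830030K20Rik in the order, and D830030K20Rik dropped below Gm5795.

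Most of the genes shared an order among the libraries labelled r1r2V. All 8 genes that were higher were lowest in replicate 5 of this group, and 7 of the 8 were highest in replicate 4. D830030K20Rik, which was lower, had the same order, with 1.22, 1.38 and 1.11 CPM in replicates 1, 4 and 5. Replicate 5 also had the highest summed level of meningeal fibroblast markers, at 77.1 CPM against 39.3 to 49.5 CPM in the other 5 libraries, with all 5 markers listed in the tables. Its part in the result was not tested. In V, Gm3500, Gm3488, LOC100861615, Gm2897, Gm10406 and Gm3558 were highest in replicate 2 on the CPM scale, as was the sum of the 10. Gm3383 was highest in replicate 3, and Gm5795, Gm3317 and D830030K20Rik in replicate 4.

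Sums over copies do not depend on how reads were divided among the genes in the sum. The 10 genes together had 2100, 1922 and 1689 counts in V and 8784, 9601 and 6781 counts in the libraries labelled r1r2V. That was 118, 108 and 107 CPM in V, against 510, 552 and 395 CPM in the libraries labelled r1r2V. The mean was 111 ± 6.24 CPM in V and 486 ± 80.9 CPM in the libraries labelled r1r2V, 4.36-fold higher, with a fitted log2 fold change of 2.13 that became 2.25 without replicate 5. The family as summed was thus higher in every library labelled r1r2V, although 2 of its genes were lower.

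A BLAST search of all listed genes found 9 more copies of the family, with alignments of 95% identity or better that cover 0.5 or more of the shorter transcript. These were Gm10413, Gm10408, Gm5796, 2610042L04Rik, Gm3264, Gm3636, Gm3696, Gm5797 and Gm5458. They share reads with the 10 genes, so their values are not independent of those above. In the GENCODE models, unique 100-base words made up 54.1% of 2610042L04Rik, 44.0% of Gm3636, 42.0% of Gm5458, 32.1% of Gm5796 and 26.3% of Gm3696. The share was 16.5% in Gm5797, 13.0% in Gm10408, 11.4% in Gm3264 and 0.0% in Gm10413. All 9 had a higher mean in the libraries labelled r1r2V, and 7 had groups that did not overlap. Over all genes tested, 6.87% were higher without overlap. Of the 8 that could be tested, 5 were called higher by edgeR (0.298% of all genes tested) and none lower (0.118%). The median log2 fold change of the 8 was 1.21, against 0.01 over all genes tested. Among these 8, Gm5797 had 0, 3.2 and 2.07 counts in V, and Gm10408 had 8.26, 5.25 and 6.34. Both passed the filter (minimum count 10) only through the libraries labelled r1r2V, where they are high. They could hardly have been tested without being higher, yet both are among the calls and in the median. Gm3636 (chr14:6735683-6757601) had the highest CPM of the 9, at 35.0, 30.4 and 31.2 CPM in V, against 84.5, 98.2 and 68.3 CPM in the libraries labelled r1r2V (log2 fold change 1.38, edgeR adjusted p = 0.000644). Gm5797 (log2 fold change 3.79), Gm3264 (2.26), Gm10408 (2.09) and Gm5796 (1.05) were also called, with adjusted p between 0.00176 and 0.0323.

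Of the other copies, 3 were tested and not called. For 2610042L04Rik the log2 fold change was 0.58 (edgeR adjusted p = 0.374), for Gm3696 it was 0.42 (0.557) and for Gm5458 it was 0.55 (0.768). Gm5458 lies apart from the others, at 19.59 Mb on chromosome 14. The promoter window of 2610042L04Rik, which also has the E-box at -14, differed from that of LOC100861615 at 21 of 300 bases. LOC100861615, which had been chosen for its difference in this contrast, was 6.82-fold higher. 2610042L04Rik, which had not, was 1.49-fold higher, with overlapping groups. The difference between the 2 genes was not tested. Gm10413, which was too scarce to test, and Gm5797 had windows that differed at 10 of 300 bases.

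**Figure D3:**
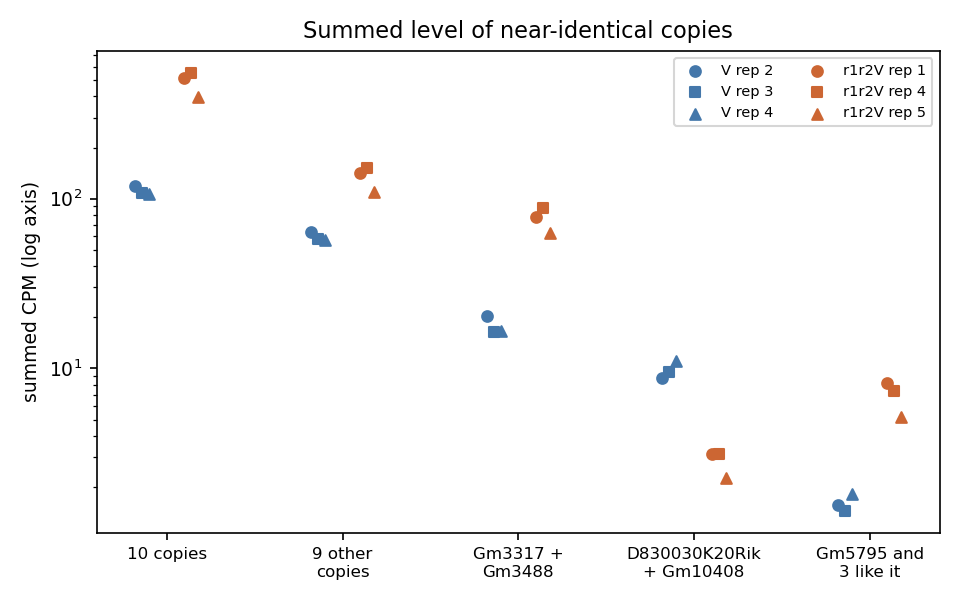
Summed CPM of near-identical copies in each library on a log axis, V in blue and r1r2V in orange, with replicates as marker shapes. The sum of the 10 genes, the 9 other copies, Gm3317 with Gm3488, and Gm5795 with 3 similar genes are higher in all 3 orange libraries, and D830030K20Rik with Gm10408 is lower in all 3.

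The 9 other copies summed to 59.6 ± 3.80 CPM in V and 134 ± 22.8 CPM in the libraries labelled r1r2V, 2.25-fold higher. All 19 copies together summed to 182, 166 and 164 CPM in V, against 652, 704 and 504 CPM in the libraries labelled r1r2V. The mean was 171 ± 10 CPM in V and 620 ± 104 CPM in the libraries labelled r1r2V, 3.63-fold higher (fitted log2 fold change 1.86). Both sums kept the groups apart.

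The division of this total among copies was alike within a group and differed between groups. The 10 genes held 64.9% to 65.2% of the count of the 19 copies in V and 78.2% to 78.4% in the libraries labelled r1r2V, a share that follows from how they were chosen. LOC100861615 went from 7.13% ± 0.982 to 13.5% ± 0.453 of the count, and Gm3500 from 2.58% ± 0.407 to 7.11% ± 0.317 (SD, n = 3). Gm2897 held 6.83% ± 0.255 in V and 6.73% ± 0.516 in the libraries labelled r1r2V, and the ranges overlapped. D830030K20Rik went from 5.53% ± 0.985 to 0.202% ± 0.0165. Among the other copies Gm3636 went from 18.8% ± 0.488 to 13.5% ± 0.492, and 2610042L04Rik from 5.92% ± 0.354 to 2.43% ± 0.232. A copy could thus be higher in CPM and yet hold a smaller share of the family, as Gm3636 did.

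**Figure D4:**
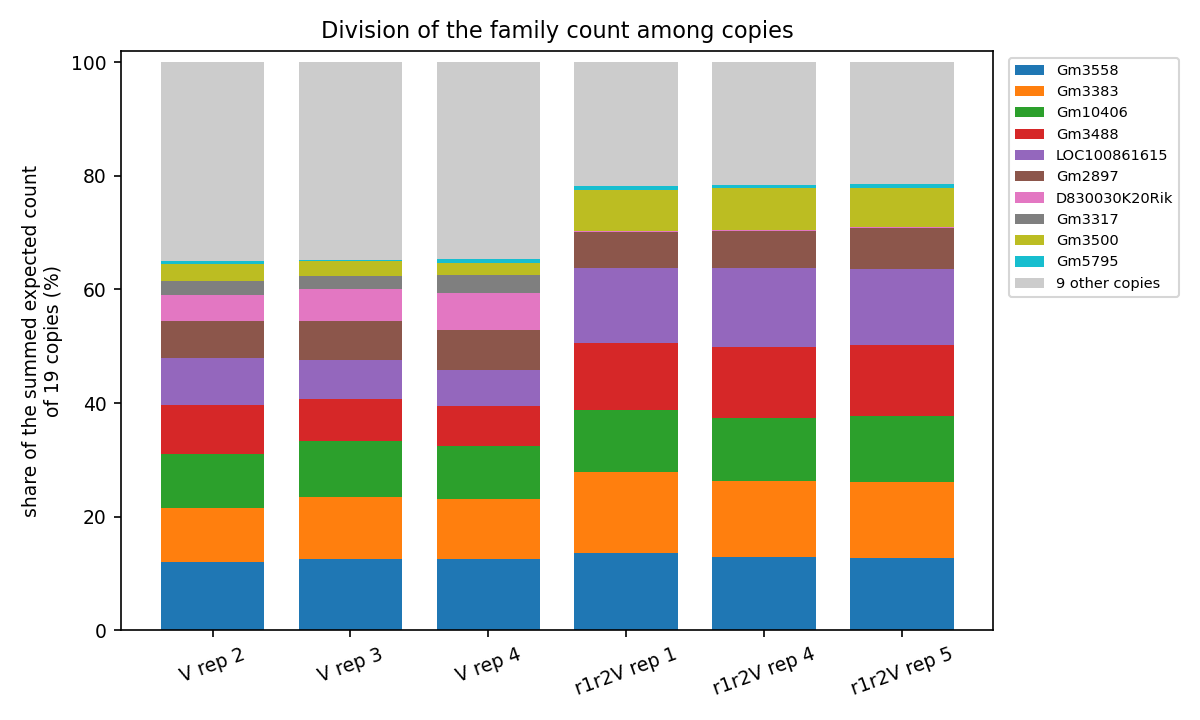
Stacked bars of the share of the summed expected count of the 19 copies, in percent, held by each of the 10 genes and by the 9 other copies together (grey), for each library. The grey part is smaller in the 3 libraries labelled r1r2V, and the parts of D830030K20Rik and Gm3317 that are visible in V are nearly or wholly missing there.

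The 10 genes are spread from 3.05 to 7.55 Mb on chromosome 14, 5 on each strand, with gaps of 11.8 to 1910 kb between neighbours. D830030K20Rik lies 11.8 kb beyond the end of Gm5795, and the 2 genes went in opposite directions. Of 80 RefSeq protein-coding genes that start between 3 and 8 Mb, 21 were listed in the tables, and 3 of those were neither among the 10 genes nor among the other copies. 4930555G01Rik, itself a copy at the looser identity of 90%, was at 1.58, 1.07 and 0.952 CPM in V and at 5.51, 5.4 and 3.67 CPM in the libraries labelled r1r2V (log2 fold change 2.00, edgeR adjusted p = 0.00773). The call was lost without V replicate 3 or without V replicate 4, when 0 of the neighbours were called. Dnase1l3, a secreted DNase gene, was too scarce to test. Nr1d2 lies 10.64 Mb beyond the last of the 10 genes on the same chromosome.

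**Figure D5:**
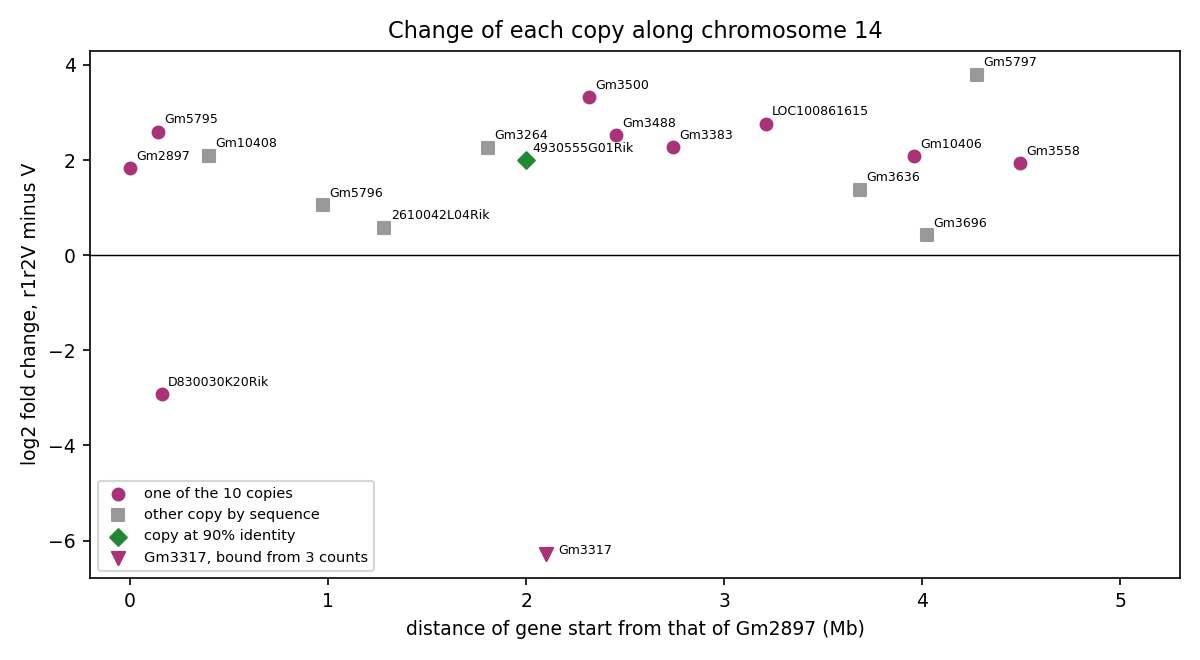
Log2 fold change (r1r2V minus V) of each tested copy, with 4930555G01Rik as a green diamond, against the distance of its start from that of Gm2897, in Mb; Gm5458, far from the others, is left out and Gm3317 is drawn at its bound of -6.28. Purple points lie between 1.83 and 3.32 except D830030K20Rik (-2.92) and Gm3317, and grey squares (other copies) lie above 0.

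Genes of the synaptic scaffold to which takusan proteins have been linked were taken as the wider pathway, as a list of 23 that included the DLG, DLGAP, SHANK and HOMER scaffolds, glutamate receptor subunits and neuroligins. All 23 were tested. edgeR called 0 of them in either direction, DESeq2 and limma-voom also called 0, and 3 had an unadjusted p under 0.05. The log2 fold changes ran from -0.11 to 0.37, with 21 of 23 above 0 and a median of 0.07, against 0.01 over all genes tested and 0.416% of them called. The shares of all genes tested with an unadjusted p under 0.05 or a value above 0 were not taken. Neither the 3 nor the 21 is therefore read as a result about the list. Dlg5, the gene that the family resembles, was at 51.5, 59.8 and 57.8 CPM in V and at 75.0, 49.6 and 53.6 CPM in the libraries labelled r1r2V. The groups overlapped (log2 fold change 0.08, edgeR adjusted p = 0.903). Dlg4 was at 378, 387 and 386 CPM in V and at 411, 371 and 378 CPM in the libraries labelled r1r2V (log2 fold change 0.01, edgeR adjusted p = 0.970). A p that misses the threshold does not show equal levels.

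The 5 genes outside the family whose pattern over the 6 libraries was most like that of the summed 10 were Rrad, Arntl, Nfil3, Utp14b and Nudt2. Likeness was Pearson's r of log2(CPM + 0.5) over 6 libraries and 13859 genes that averaged 1 CPM or more. It was 0.996 for Rrad, 0.991 for Arntl and for Nfil3, 0.990 for Utp14b and 0.988 for Nudt2, and with 3 libraries a group it is set mainly by the split between genotypes. Arntl, which encodes the clock activator BMAL1, was at 29.0, 29.5 and 27.2 CPM in V and at 49.1, 47.3 and 45.9 CPM in the libraries labelled r1r2V. Nfil3, which encodes the clock-linked repressor E4BP4, was at 14.0, 14.8 and 12.3 CPM in V and at 29.3, 30.4 and 25.9 CPM in the libraries labelled r1r2V. Rrad, which encodes a small GTPase, was at 20.6, 21.1 and 20 CPM in V and at 30.9, 31.3 and 28.6 CPM in the libraries labelled r1r2V. Rrad and Nfil3 had the order of replicates seen for most of the 8 genes, highest in replicate 4 and lowest in replicate 5, while Arntl was highest in replicate 1. Their log2 fold changes, 0.55 for Rrad, 0.73 for Arntl and 1.06 for Nfil3, were smaller than that of the summed family (2.13). Utp14b and Nudt2 had log2 fold changes of 0.42 and 0.17 and lay close together within each group.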

How the data were processed

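The authors deposited, per the file headers, an expected count, an FPKM and a transcript length for each gene of each of the 6 libraries. The build was mm10 and the tools were RSEM 1.2.12, Bowtie2 2.2.5, HISAT2 2.0.4, Cufflinks 2.2.1, StringTie 1.0.4, DESeq2 and GATK, per the submitters' processing notes. Expected counts are the authors' estimates of reads per gene, in which reads that match several copies are divided between them. FPKM values are the authors' fragments scaled by transcript length and library size. Whether strand was used is not stated there. Genes absent from a library's table were set to 0, and 15460 of 17645 genes were listed in all 6 libraries.

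Expected counts were rounded and filtered (filterByExpr, minimum count 10), and 14438 genes were fitted with edgeR 4.0.16 in R 4.3.3 (trimmed mean of M-values, quasi-likelihood test, Benjamini-Hochberg adjustment over all genes, threshold 0.05). CPM values use the scaled library totals. Copies were found with BLAST+ 2.17.0 among GENCODE M21 transcripts of 17569 genes (99.6%). Gene positions and promoters are RefSeq's (GRCm38.p6). DESeq2 1.42.0 and limma 3.58.1 served as alternatives, with other scalings, filters, identities and left-out libraries. The edgeR script was tested on simulated data with known changes. It recovered 66% of changes of 1.5-fold, 90% of 2-fold and 100% of 4-fold and 8-fold. At the threshold of 0.05, 9.18% of its calls there were wrong. The 10 genes were chosen from this contrast, and the gene and marker lists were written with earlier results of these data known. The text names all 10 genes, the other copies, the called neighbour and Dnase1l3, Dlg4, Dlg5, Nr1d1, Nr1d2 and the 5 genes most like the summed family, and 1 neighbour is not reported here. The markers covered SCN neurons, neurons, astrocytes, oligodendrocytes, microglia, endothelial cells, choroid plexus, ependymal cells, meningeal fibroblasts and red blood cells. Totals of 15729603 to 17780928 counts set the precision, and floors cover counting error only.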

Additional observations from a re-analysis of the deposited data

How the results depend on the processing

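With other tests, scalings, filters and units, and with each library left out, 8 of the 10 genes were called higher and 2 lower, with their directions kept. Over all genes tested, 26 to 109 were called across the settings. The 10 genes were chosen on this contrast in these same libraries, so their calls here say nothing further about them. Calls of single genes were not made with near-identical copies summed. The fitted log2 fold change of the 10 summed genes was 2.02 to 2.25, and that of all copies 1.76 to 1.98, including 1.86 at 90% identity and 1.91 at 98%. On log2(FPKM + 1), which understates low genes, values were nearer 0, at -1.93 for D830030K20Rik and 1.69 for Gm5795. Gm3317, at 0 in the libraries labelled r1r2V, ran from -9.36 to -1.92 over the settings. The size of its fitted change thus depends on the processing. No paired analysis was possible because replicate number 4 alone occurs in both groups.

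The number of genes called over all 14438 tested was less stable. It was 60, rose to 109 with DESeq2 and fell to 38 with near-identical copies summed, where fewer genes were tested. Leaving out 1 library gave 26 to 67 calls, with the lowest numbers when a V library was left out (27 without replicate 2, 28 without replicate 3, 26 without replicate 4). Among the 3 neighbours on chromosome 14, the number called was 1, became 2 with DESeq2, and was 0 to 2 with 1 library left out. The cause was not tested.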
